A study of Mus musculus with 9 samples.

Results

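The 10 genes described here encode the sensors, transcription factors and target proteins of the unfolded protein response: Ern1, Eif2ak3, Atf6, Xbp1, Atf4, Ddit3, Trib3, Hspa5, Hsp90b1 and Dnajb9. They were taken by symbol from a table of 17527 genes, all 10 were found, and all 10 were among the 13711 genes with enough counts to be tested. RNA sequencing was done on mouse anterior lens capsule, the sheet of basement membrane that covers the lens in front, with the epithelium attached to it. The groups were 3 young control libraries, 3 aged control libraries and 3 libraries of aged mice given epigallocatechin gallate (EGCG), the main catechin of green tea. The sources used here do not give the strain, the ages, or the dose, route and duration of EGCG. They do not say either whether each library is from its own animal, so the p-values reflect no more than the scatter among these samples, and that may be technical. The series is titled as a study of EGCG and age-related cataract.

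The endoplasmic reticulum folds secreted and membrane proteins, among them the collagens and laminins that lens epithelial cells lay down as capsule. When unfolded proteins gather there, 3 sensors in its membrane respond. IRE1 (Ern1) is an endonuclease that splices the Xbp1 messenger, PERK (Eif2ak3) is a kinase that phosphorylates eIF2α and thereby slows translation in general while favouring that of ATF4, and ATF6 moves to the Golgi, where proteases free its transcription factor domain. XBP1, ATF4 and ATF6 then raise chaperones, degradation enzymes and, under lasting stress, the factor CHOP (Ddit3). The activity of all 3 sensors is set by changes in the proteins, and that of IRE1 acts through splicing. A count per gene measures none of these.

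The splicing step shows this limit. The segment that IRE1 removes from the Xbp1 messenger was located as the stretch of 26 bases between a pair of sites with the letters CNGCAGN, each cut between G and C. It is shown because spliced and unspliced messengers differ only by these bases and give the same count per gene. The 46-base window, in DNA letters with the removed segment in capitals, was identical in the 3 annotated protein-coding Xbp1 transcripts (GENCODE M21, GRCm38) that were searched.
Xbp1: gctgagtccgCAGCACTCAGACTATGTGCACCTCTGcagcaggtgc

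The chaperone genes Hspa5 and Hsp90b1 carry the element through which ATF6 and XBP1 act, the endoplasmic reticulum stress element (ERSE), which consists of a CCAAT box, a spacer and CCACG. The letters CCAAT, then any 9 bases, then CCACG were searched on both strands of the windows from 250 bases before to 50 bases after each gene start (RefSeq, GRCm38.p6). Of 32851 windows 39 held them, which is 0.119%. Of the 9 members with a window, Hspa5 held 1 match and Hsp90b1 held 2, and the other 7 held none. The matches are shown with the CCAAT and CCACG letters in capitals, because the levels of both chaperones are compared with those of the other targets in what follows. The Hspa5 window is chr2:34772020-34772049 on the plus strand, and the Hsp90b1 windows are chr10:86705632-86705661 and chr10:86705527-86705556 on the minus strand, the latter holding the element in reverse.
Hspa5: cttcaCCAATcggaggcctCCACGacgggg
Hsp90b1, far: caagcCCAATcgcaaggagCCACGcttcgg
Hsp90b1, near: gagtgCGTGGtgaggcacgATTGGtgagtt
The Hspa5 window began 70 bases before the RefSeq gene start, and the Hsp90b1 windows began 217 and 112 bases before it. The gene coordinates given below are from GENCODE M21, where both genes have other starts, so these distances do not follow from them. The ATF4 response element TGATGNAA was found in 3.97% of all windows and, among the members, only in Trib3, where it ran in reverse and started 15 bases after the gene start. Neither the variant ERSE-II, ATTGG and CCACG with any 1 base between them, nor TGACGTGG, a core of the XBP1 element, occurred in a member's window, and they occurred in 0.0365% and 0.676% of all windows. The CCAAT box alone was in the windows of 6 members and in 37.4% of all windows, and it forms part of the ERSE. A match describes letters and not binding. An element with other letters or outside these windows would not be found, so a window without a match does not show that a gene lacks the element.

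Library totals ranged from 13184169 to 16528179 counts, and the members together took between 0.110% and 0.119% of them. Levels are given as CPM, the usual counts-per-library-total unit, scaled between libraries with the TMM factors of edgeR, and a count of 3 in a library corresponded to between 0.182 and 0.228 CPM before this scaling. Lens markers were present throughout and moved with the groups. The 20 fibre genes took 4.961% to 4.972% of the counts in young control, 4.24% to 4.43% in aged control and 4.09% to 4.20% in EGCG libraries, and the 15 epithelial genes 0.484% to 0.492%, 0.585% to 0.642% and 0.626% to 0.641%. With TMM scaling, 12 of 19 tested fibre genes and 10 of 15 epithelial genes were called higher with age (6 and 2 lower), beside 35.4% of all genes higher and 33.8% lower. With EGCG in aged capsule 11 and 7 were lower (0 and 1 higher), beside 10.3% of all genes lower and 13.8% higher. These calls count each gene once, whereas the shares are sums of counts without TMM scaling. Bfsp1 gave the most counts to the fibre sum and Dkk3 to the epithelial sum. TMM factors were 1.1184 to 1.1305 in young control, 0.881 to 0.9264 in aged control and 0.9812 to 0.989 in EGCG libraries. The same fibre genes are the reference of the lens fibre scaling used below. Its median over all genes with EGCG was 0.187. The part of these marker genes in the members' changes was not tested. Markers of the retina were present too. Their 30 genes, none of them at 0 in a library, took 2.974% to 3.002% of the counts in young control, 0.144% to 0.154% in aged control and 1.153% to 1.165% in EGCG libraries, so retinal RNA moved with the groups. Markers of red blood cells (0.0232% to 0.0241%, 0.000569% to 0.000703% and 0.00198% to 0.00251%) and of endothelium and mural cells (0.0252% to 0.0267%, 0.0143% to 0.016% and 0.0138% to 0.0143%) were also highest in young control, and immune markers stayed under 0.002% in all 9 libraries. In such bulk tissue, fewer cells of a type and less RNA per cell cannot be told apart.

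Per length, the order of the members was nearly the same in all 3 groups. Hsp90b1 (GRP94) had the highest mean level in each, with 169 ± 3.48 FPKM in young control, 165 ± 8.93 in aged control and 173 ± 3.84 under EGCG (SD over 3 libraries), where FPKM is the deposited value per gene length and library total. Hspa5 and Atf4 exchanged places. Hspa5 was above Atf4 in young control (127 ± 3.14 against 92.3 ± 2.46 FPKM), and Atf4 was above Hspa5 in aged control (138 ± 11 against 100.3 ± 4.20) and EGCG libraries (151 ± 8.97 against 94.7 ± 4.16), and the ranges did not overlap within any group. Xbp1 was next with 27.1 to 34.5 FPKM as group means. Ddit3 and Dnajb9 followed and overlapped in each group, at 11.6 ± 0.343 and 11.9 ± 0.509 FPKM in young control and at 19.1 ± 1.94 and 17.1 ± 1.91 in aged control. The sensors were low, at 4.18 to 7.78 FPKM for Atf6, 3.30 to 5.05 for Eif2ak3 and 1.72 to 3.58 for Ern1, and Trib3 was lowest at 0.577 to 1.41 FPKM.

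**Figure D1:**
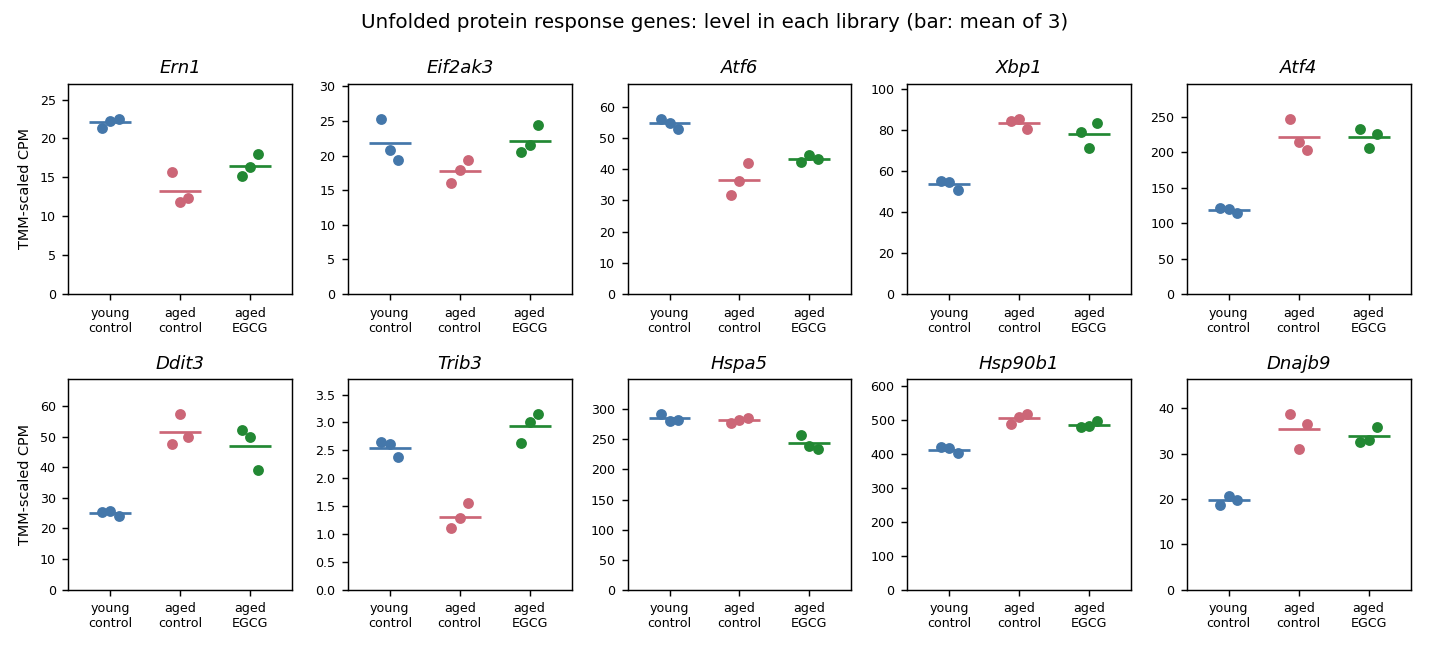
Level of each of the 10 genes (vertical axis, TMM-scaled CPM from 0) in each library, grouped as young control, aged control and aged EGCG; points are libraries and bars are means of 3. Xbp1, Atf4, Ddit3 and Dnajb9 were higher in all 6 aged libraries than in the 3 young ones, Ern1 and Atf6 were lower in all 6, and Trib3 was low in the aged control libraries.

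In aged against young control capsule members were called in both directions. The transcription factors Xbp1, Atf4 and Ddit3 and the chaperones Dnajb9 and Hsp90b1 rose, the sensors Ern1, Eif2ak3 and Atf6 and the pseudokinase gene Trib3 fell, and Hspa5 did not pass the test. That is 9 of 10 members called at an adjusted p under 0.05 in edgeR's quasi-likelihood test, where 69.2% of all genes tested were called. Of all genes 35.4% were called higher and 33.8% lower, against 5 and 4 of the 10 members, so a call alone says little about the members. With library size only in place of TMM, 2939 of all genes were called higher and 6442 lower, and scaled to lens fibre genes 3695 and 5689, in place of 4847 and 4635. The median log2 fold change was 0.14 over the members and 0.02 over all genes tested.

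The sensors were lower in aged control than in young control. Ern1, the gene of the IRE1α endonuclease (chromosome 11, 106394650 to 106487852, minus strand), had 21.4, 22.3 and 22.5 CPM in the young control libraries and 15.7, 11.9 and 12.3 in the aged control libraries. The groups did not overlap, as in 72.1% of all genes tested, and the log2 fold change was −0.73 (SE 0.129, edgeR adjusted p = 2.8e-06). Atf6, the gene of the Golgi-processed sensor (chromosome 1, 170704674 to 170867771, minus strand), had 56.2, 54.9 and 53.1 CPM in young control and 31.8, 36.1 and 42.0 in aged control, which is −0.58 on the log2 scale (SE 0.0871, edgeR adjusted p = 1.03e-07). Its aged libraries spread more than its young ones, but all 3 stayed below them.

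Eif2ak3, the gene of PERK (chromosome 6, 70844515 to 70905245, plus strand), had 25.3, 20.9 and 19.3 CPM in young control and 16.1, 18.0 and 19.4 in aged control. The groups overlapped, with the lowest young library just under the highest aged one. The log2 fold change was −0.30 (SE 0.123, edgeR adjusted p = 0.0304). This call was lost without aged control library 1 (adjusted p = 0.143), without aged control library 2 (0.0586), without young control library 1 (0.265) and with the trend of gene length removed, and the adjusted p ranged from 3.15e-05 to 0.265 over 19 alternatives.

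The transcription factors rose. Atf4 (chromosome 15, 80255184 to 80257541, plus strand), whose protein drives amino acid and redox genes, had 121.0, 119.5 and 114.8 CPM in young control and 247, 215 and 203 in aged control. This 1.87-fold rise (log2 fold change 0.90, SE 0.0594, edgeR adjusted p = 2.9e-18) had the smallest p of the 10 members. Ddit3 (chromosome 10, 127290774 to 127296288, plus strand), the gene of CHOP, a factor of the late and pro-apoptotic phase of the response, had 25.3, 25.7 and 24.1 CPM in young control and 47.6, 57.2 and 49.7 in aged control. It rose 2.06-fold (log2 fold change 1.04, SE 0.0969, edgeR adjusted p = 3.2e-13). Every aged control library was above every young one for both genes, by a wide margin against the spread within groups.

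Xbp1 (chromosome 11, 5520659 to 5525893, plus strand), counted over both spliced forms, had 54.8, 54.7 and 50.5 CPM in young control and 84.2, 85.4 and 80.1 in aged control. It rose 1.56-fold (log2 fold change 0.64, SE 0.0703, edgeR adjusted p = 4.11e-11). Trib3 (chromosome 2, 152337422 to 152344032, minus strand), a pseudokinase gene induced by ATF4 and CHOP whose protein binds AKT, went the other way. It had 42, 42 and 39 counts in young control and 16, 19 and 20 in aged control, which is 2.65, 2.62 and 2.38 against 1.10, 1.28 and 1.55 CPM. Its log2 fold change was −0.96 (SE 0.377, edgeR adjusted p = 0.0221), a call lost without aged control library 1 (adjusted p = 0.0659) and without young control library 1 (0.0531), with a range of 5.01e-05 to 0.0659 over 19 alternatives.

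The chaperones did not move as 1 group. Dnajb9 (chromosome 12, 44205559 to 44210326, minus strand), the gene of ERdj4, a co-chaperone that IRE1 and XBP1 induce, had 18.8, 20.7 and 19.7 CPM in young control and 38.6, 30.9 and 36.5 in aged control. It rose 1.79-fold without overlap (log2 fold change 0.84, SE 0.104, edgeR adjusted p = 1.05e-09). Hspa5 (chromosome 2, 34771970 to 34777547, plus strand), the gene of BiP, the main Hsp70 chaperone of the endoplasmic reticulum, had 291, 281 and 282 CPM in young control and 277, 283 and 286 in aged control. These libraries overlapped, and the log2 fold change was −0.02 with a 95% interval of −0.11 to 0.08 (edgeR adjusted p = 0.793). With library size only, Hspa5 was lower in aged control by −0.336 and was called, and scaled to lens fibre genes or with the length trend removed it was also called lower, by −0.208 and −0.222.

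Hsp90b1 (chromosome 10, 86690209 to 86705509, minus strand), the gene of the Hsp90 chaperone GRP94, which folds integrins and Toll-like receptors, had 419, 418 and 402 CPM in young control and 487, 510 and 516 in aged control. The log2 fold change was 0.29 (SE 0.0448, edgeR adjusted p = 2.14e-07). This direction depended on the scaling. With library size only the value was −0.032 and not called, and scaled to lens fibre genes it was 0.096 and not called. Hspa5 relative to Hsp90b1 is a ratio within each library that no scaling factor per library changes. It was 0.695, 0.672 and 0.701 in young control and 0.567, 0.555 and 0.554 in aged control. Hspa5 was thus lower against Hsp90b1 in every aged control library.

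**Figure D2:**
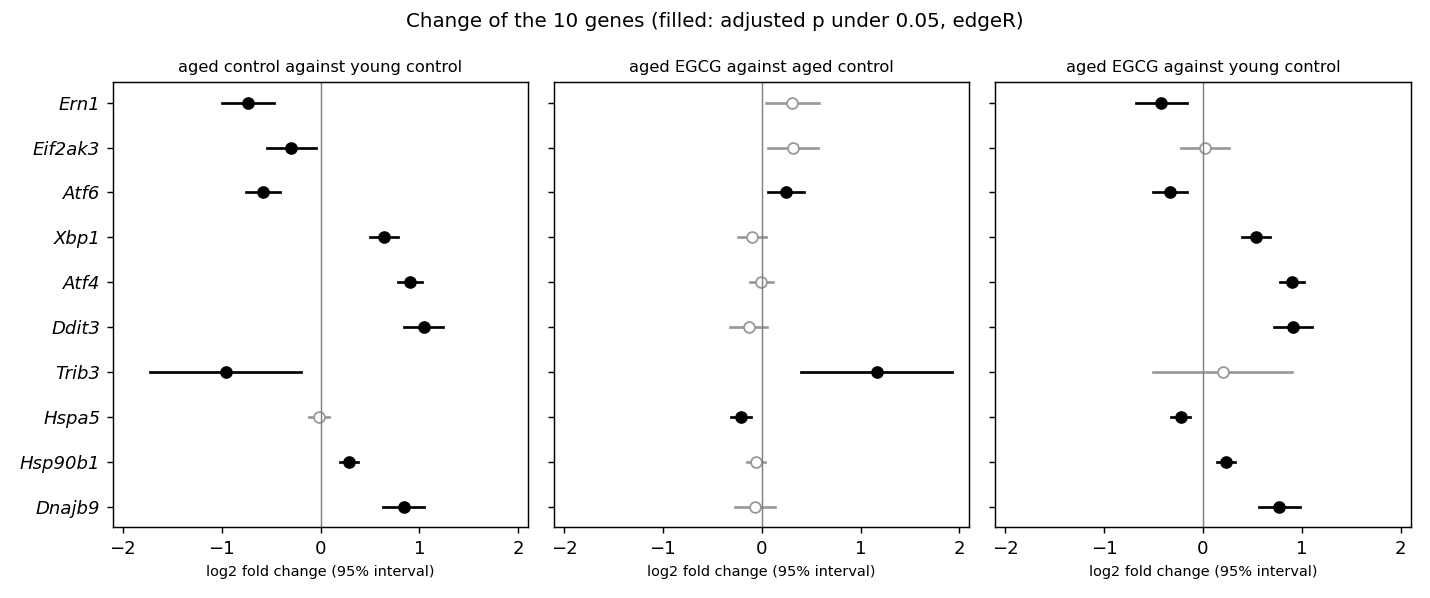
Log2 fold change (horizontal axis) of the 10 genes in the 3 comparisons, with 95% intervals from edgeR; filled points were called at an adjusted p under 0.05 and open points were not. The factors and Dnajb9 lie above 0 and the sensors below 0 with age, and 3 of the 10 genes were called for EGCG against aged control.

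The sensors were also the longest of the 10 genes. The lengths implied by the deposited FPKM were 6948 bases for Ern1, 4868 for Eif2ak3 and 7926 for Atf6, and 1446 (Atf4) to 2759 (Hsp90b1) for the 7 others. Over the 2804 tested genes as long as the sensors, the median log2 fold change with age was −0.21, with 43.5% called lower and 25.4% higher. Over the 3162 genes in the length range of the others it was 0.29, with 46.7% called higher and 21% lower. With each library's length trend removed, Ern1 (−0.468) and Atf6 (−0.254) were still called lower, Eif2ak3 (−0.169) was not, and Atf4 (0.514), Ddit3 (0.824), Xbp1 (0.396), Dnajb9 (0.540) and Hsp90b1 (0.115) were still called higher. The retinal markers, all 30 lower with age with a median of −4.19, moved with the sensors, and the part of retinal RNA and of RNA quality in these changes was not tested.

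**Figure D3:**
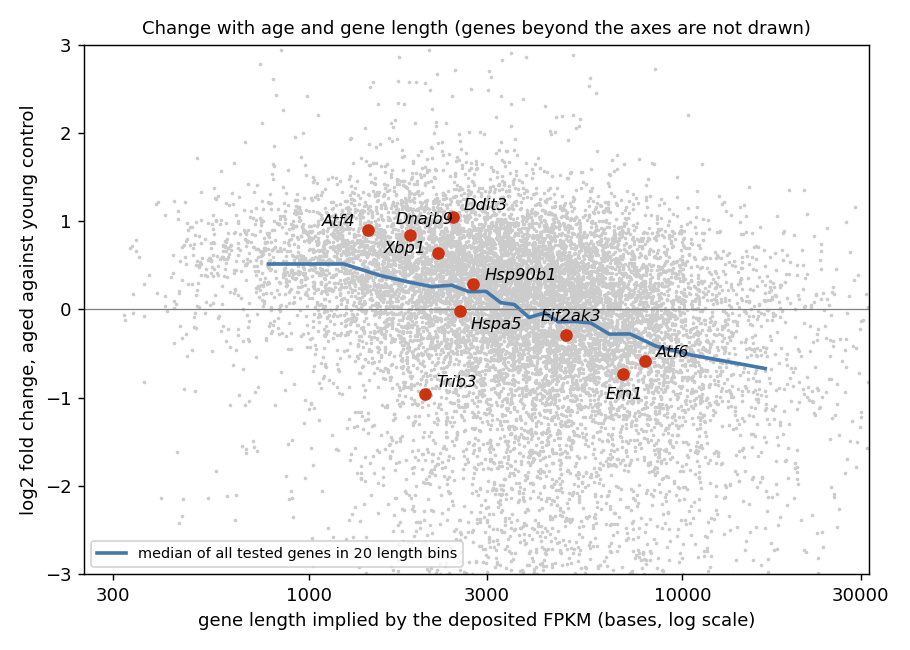
Log2 fold change in aged against young control (vertical axis) by gene length in bases (horizontal axis, log scale); grey points are tested genes, the line is their median in 20 length bins and red points are the 10 members. The 3 sensors lie among the longer genes and below 0, and Atf4, Ddit3, Dnajb9 and Xbp1 among the shorter ones and above the line.

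Ratios within a library, chosen after the values were seen, do not depend on a scaling factor per library. They can depend on the trend of gene length, and Ddit3, Atf4, Dnajb9 and Hspa5 have 2432, 1446, 1865 and 2534 bases. Ddit3 per Hspa5 count was 0.0868, 0.0915 and 0.0853 in young control, 0.172, 0.202 and 0.174 in aged control and 0.203, 0.208 and 0.167 in EGCG libraries. Atf4 per Hspa5 count was 0.415, 0.426 and 0.407 in young control, 0.894, 0.759 and 0.711 in aged control and 0.904, 0.862 and 0.959 in EGCG libraries. Both factors thus stood higher against the BiP transcript in every aged library, treated or not, with mean increases of 2.08-fold and 1.88-fold in aged against young control. The exact two-sided permutation test of 3 against 3 libraries gave p = 0.1 for each, the smallest it allows, and 0.129 after Benjamini-Hochberg adjustment over 18 tests of 6 ratios. Dnajb9 per Hspa5 count, with the same p, went from 0.0645, 0.0737 and 0.0699 in young control to 0.140, 0.109 and 0.128 in aged control. Xbp1 per Ern1 count, the substrate against its nuclease, was 2.57, 2.45 and 2.24 in young control, 5.37, 7.20 and 6.51 in aged control and 5.20, 4.35 and 4.63 in EGCG libraries. All aged control libraries were above all others in this ratio, and the EGCG libraries lay between the groups (exact permutation p = 0.1 and 0.129 adjusted for each pair of groups). Xbp1 and Ern1 differ in length, at 2221 and 6948 bases, and the 2 length ranges given above had medians of 0.29 and −0.21 with age. The order of the groups was the reverse of that of the retinal marker shares. The part of gene length and of retinal RNA in any of these ratios was not tested.

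When EGCG-treated aged capsule was compared with aged control, 7 of the 10 members did not pass the test. Atf6 and Trib3 were higher and Hspa5 was lower with EGCG, 3 of 10 called, where 24.1% of all genes tested were called, 13.8% higher and 10.3% lower. The factors raised with age, Xbp1, Atf4 and Ddit3, and Dnajb9 were not called. This comparison shares the aged control libraries with the one before, so opposite signs in the 2 comparisons are not independent of each other. The median log2 fold change was −0.03 over the members and −0.004 over all genes tested. With library size only 3086 of all genes were called higher and 611 lower, and scaled to lens fibre genes 4365 and 462, in place of 1894 and 1406.

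Trib3 differed most in size among the members. It had 36, 44 and 41 counts in the EGCG libraries, against 16, 19 and 20 in aged control and 42, 42 and 39 in young control. At 2.63, 3.02 and 3.14 CPM, all EGCG libraries were above the aged control, as 33.5% of all genes tested did not overlap between these groups. The change was 2.24-fold (log2 fold change 1.16, SE 0.378, edgeR adjusted p = 0.0188), and the call was lost without aged control library 1 (adjusted p = 0.0614, the highest over 19 alternatives, with 0.00029 the lowest). EGCG and young control libraries differed in Trib3 by 0.20 with a 95% interval of −0.50 to 0.90, and the retinal marker share of these groups differed as given above. Both Trib3 and the retinal marker share were lowest in aged control, and the part of retinal RNA in Trib3 was not tested.

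Hspa5 had 257, 240 and 235 CPM in the EGCG libraries, below all 3 aged control libraries. The log2 fold change was −0.21 (SE 0.049, edgeR adjusted p = 0.000862). The call held with TMM or DESeq2 size factors but not with library size only (−0.083), scaled to lens fibre genes (−0.019) or on log2(FPKM + 1) (−0.083), and the adjusted p ranged from 4.22e-05 to 0.796 over 19 alternatives. Relative to Hsp90b1 within the library, Hspa5 was 0.536, 0.496 and 0.473 in EGCG libraries, lower than in each aged control library (exact permutation p = 0.1, the smallest possible, and 0.129 adjusted over the 18 tests).

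Among the sensors, Atf6 was called higher with EGCG and the other 2 were not called. Atf6 had 42.4, 44.5 and 43.4 CPM with EGCG, just above the highest aged control library at 42.0 (log2 fold change 0.25, SE 0.0891, edgeR adjusted p = 0.0356). The Atf6 call was lost without aged control library 1 (adjusted p = 0.26), without aged control library 2 (0.0957), without EGCG library 2 (0.109), without EGCG library 3 (0.0674), with DESeq2 and in a fit of these 2 groups alone, and the adjusted p ranged from 0.000148 to 0.26. Ern1 had 15.2, 16.4 and 17.9 CPM with EGCG, overlapping the aged control, and differed by 0.31 (95% interval 0.04 to 0.58, edgeR adjusted p = 0.0882). Eif2ak3 had 20.5, 21.6 and 24.4 CPM with EGCG, above all aged control libraries, and differed by 0.32 (95% interval 0.07 to 0.56, edgeR adjusted p = 0.057). Ern1 and Eif2ak3 were called with library size only (0.440 and 0.442) or scaling to lens fibre genes (0.502 and 0.506), settings in which the median over all genes was 0.123 and 0.187. Ern1 was also called without aged control library 1, and Eif2ak3 without aged control library 3 or EGCG library 1. As group means, Atf6 had 54.7 CPM in young control, 43.4 with EGCG and 36.7 in aged control, and Ern1 had 22.1, 16.5 and 13.3. This was the order of the retinal marker shares, whereas Eif2ak3, with 21.8, 22.2 and 17.8 CPM, was not highest in young control. The part of retinal RNA in these values was not tested.

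For the factors and the other chaperones the EGCG and aged control libraries overlapped. Atf4 had 232, 206 and 225 CPM with EGCG, and its log2 fold change was −0.004 with a 95% interval of −0.12 to 0.11. Ddit3 had 52.0, 49.9 and 39.1 CPM with EGCG and differed by −0.13 (95% interval −0.32 to 0.06), and EGCG library 3 was the lowest of the 6. Xbp1 had 78.8, 71.3 and 83.1 CPM with EGCG and differed by −0.10 (95% interval −0.24 to 0.04). For Dnajb9 (32.5, 32.9 and 35.97 CPM) the difference was −0.07 (95% interval −0.27 to 0.14), and for Hsp90b1 (479, 483 and 496 CPM) it was −0.05 (95% interval −0.14 to 0.04). Scaled to lens fibre genes, Atf4 and Hsp90b1 were called higher with EGCG, at 0.188 and 0.137, and each of these 5 differences was above 0.

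**Figure D4:**
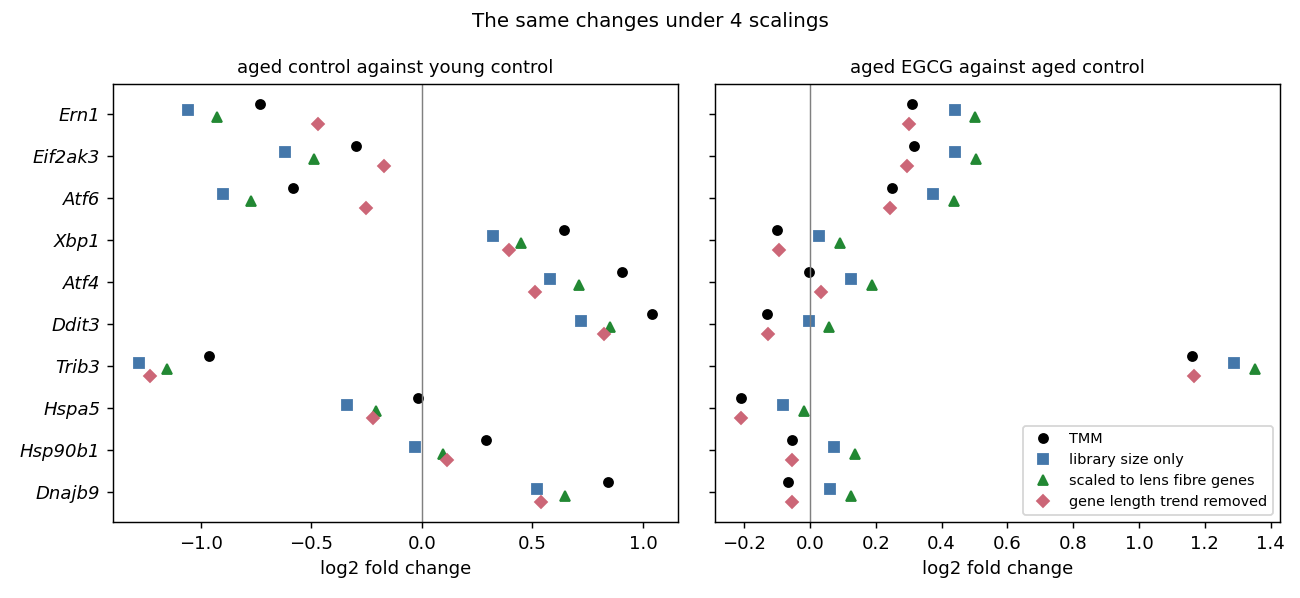
Log2 fold change (horizontal axis) of the 10 genes with age (left) and with EGCG in aged capsule (right) under TMM scaling, library size only, scaling to lens fibre genes and with the gene length trend removed. With age all genes but Hsp90b1 keep their sign under all 4, whereas with EGCG Atf4, Ddit3, Xbp1, Hsp90b1 and Dnajb9 lie near 0 and change sign.

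The EGCG libraries were also compared with young control, and this comparison shares its libraries with both others. Xbp1 (1.46-fold), Atf4 (1.87-fold), Ddit3 (1.88-fold), Hsp90b1 (1.18-fold) and Dnajb9 (1.71-fold) were higher, Ern1 (1.34-fold), Atf6 (1.26-fold) and Hspa5 (1.17-fold) were lower, and Eif2ak3 and Trib3 were not called. That is 8 of 10 members, where 63.6% of all genes tested were called, 32.3% higher and 31.4% lower. The Hspa5 difference (log2 fold change −0.22, SE 0.0488, edgeR adjusted p = 9.08e-05) was called under all 19 alternatives. Eif2ak3 differed by 0.02 with a 95% interval of −0.22 to 0.26. With the length trend removed, Ern1 (−0.168), Atf6 (−0.011) and Hsp90b1 (0.060) were no longer called.

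Other genes of the pathway were taken as 6 lists with 136 genes, of which 133 were tested. With age 89 were higher, 15 lower and 29 not called, with a median log2 fold change of 0.42, where 35.4% of all genes tested were called higher and 33.8% lower. With EGCG in aged capsule 10 were higher, 12 lower and 111 not called, with a median of −0.02, where 13.8% of all genes were called higher and 10.3% lower. Scaling moved the first split: 51 were higher and 37 lower by library size alone, and 67 and 31 scaled to lens fibre genes. It moved the second further, to 26 higher and 5 lower by library size alone, or 54 and 2 on the lens fibre scale. The median of all genes with age was −0.298 and −0.170 in these settings. Of all 13711 genes, 2939 were higher and 6442 lower with age by library size alone, and 3695 and 5689 on the lens fibre scale. With EGCG these counts were 3086 and 611, and 4365 and 462. Calls over all genes thus moved in the same directions as those of the lists.

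Among 24 chaperones and folding enzymes, 15 rose with age, 2 fell (Pdia5 and Uggt1) and 7 were not called, with a median of 0.28, beside 35.4% higher and 33.8% lower over all genes tested. The count depended on the setting, with 7 higher and 7 lower (median −0.04) by library size alone, 8 and 6 (0.09) scaled to lens fibre genes and 9 and 3 (0.07) with the length trend removed. Over all 13711 genes these settings gave 2939, 3695 and 4660 higher and 6442, 5689 and 4496 lower. P4hb, the protein disulfide isomerase that is also a subunit of the enzyme hydroxylating collagen, rose from 109 to 206 CPM as group means (1.89-fold), Dnajc3, the PERK inhibitor p58IPK, from 69.4 to 136 (1.96-fold), and Creld2, an ATF6 target, from 35.1 to 66.4 (1.89-fold). The ERSE letters were in the windows of 6 genes of this list, which included Dnajc3 and Creld2 but also Calr, calreticulin, which differed by 0.05 (edgeR adjusted p = 0.321). Over all 21 tested genes with the ERSE letters, 6 were higher and 8 lower with age, with a median of −0.20, beside 35.9% higher, 33.3% lower and a median of 0.03 over all 10886 tested genes with a window. With EGCG 1 chaperone gene was higher and 3 were lower, beside 13.8% and 10.3% of all genes tested. The rule for named genes gave Ppib, cyclophilin B (1.23-fold lower), Pdia3, ERp57 (1.13-fold lower), and Pdia5 (1.39-fold higher). The Ppib and Pdia3 calls were lost on the lens fibre scale, where Pdia3 changed sign, the Pdia3 call also with library size only and without aged control library 2 or EGCG library 2, and the Pdia5 call without either of aged control libraries 1 and 3 or EGCG libraries 2 and 3.

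Degradation and translocation genes were counted against the same shares of all genes, 35.4% higher and 33.8% lower with age. With EGCG in aged capsule these shares were 13.8% higher and 10.3% lower. By library size only, 2939 of all 13711 genes were higher and 6442 lower with age. Of 20 genes of endoplasmic reticulum-associated degradation 12 were higher and 3 lower (by library size only 7 and 8). Ube2g2, a ubiquitin-conjugating enzyme, rose 2.12-fold, and Vcp, the ATPase that extracts substrates from the membrane, 1.44-fold. The 3 lower ones, named after their values were seen, were Sel1l, Syvn1 and Erlec1, of which Sel1l and Syvn1 form the HRD1 ligase complex, and the Sel1l call was lost without aged control library 2. Of 21 translocation and export genes 19 were higher and none lower, but by library size only 8 were higher and 2 lower. Sec61b, a subunit of the translocon, rose 1.96-fold, Srp68 1.65-fold and Ssr3 1.46-fold. With EGCG 1 gene of the degradation list was called, Derl1 (1.21-fold lower, not called with library size only), and 2 of the translocation list, Sec62 (1.13-fold lower) and Srp72 (1.152-fold higher). The Sec62 call was lost with library size only and without EGCG library 3, it changed sign on the lens fibre scale, and that of Srp72 was lost with DESeq2, without aged control library 1 or 2 and without EGCG library 1 or 2.

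Genes around eIF2α and the sensors are set against the same 35.4% higher and 33.8% lower over all genes with age. With EGCG in aged capsule these shares were 13.8% higher and 10.3% lower. By library size only, 2939 of all 13711 genes were higher and 6442 lower with age. Of 13 eIF2α kinases, subunits and phosphatases 11 were higher and none lower (by library size only 8 and 2). Eif2s2, eIF2β, rose 1.81-fold, Eif2b1, a subunit of the exchange factor, 2.06-fold, and Ppp1cb, a catalytic phosphatase subunit, 1.40-fold. With EGCG, 2 were lower. Ppp1r15a, GADD34, which directs the phosphatase to eIF2α and is an ATF4 and CHOP target, had 83.6 CPM in aged control and 67.9 with EGCG as group means, a log2 difference of −0.30 (SE 0.0714, edgeR adjusted p = 0.00107). Eif2s2 had 152 and 137 CPM. Both calls were lost with library size only, and that of Eif2s2 in 14 of 19 alternatives, among them leaving out aged control library 2 or 3 or any EGCG or young control library. Of 21 regulators of the sensors 11 were higher and 4 lower with age, with a median of 0.20, but 7 and 6 by library size alone, with a median of −0.12. Bbc3, the pro-apoptotic BH3 protein PUMA, a target of p53 and CHOP, rose 5.35-fold from 3.23 to 17.3 CPM, Bax 2.15-fold, and Rtcb, the ligase that joins the cut Xbp1 messenger, 1.88-fold. Atf6b, the paralogue of Atf6, was among the lower ones (2.33-fold) and was the only regulator called with EGCG (1.44-fold higher), a call lost without aged control library 3 and without EGCG library 3. Its group means were 29.0 CPM in young control, 17.9 with EGCG and 12.4 in aged control. This was the order of the retinal marker shares, whose part in these values was not tested.

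The ATF4 target and amino acid list moved in both directions in both comparisons. Of 34 genes 21 were higher and 6 lower with age (median 0.46), beside 35.4% and 33.8% of all genes, but 14 and 12 by library size alone (median 0.14) and 19 and 11 scaled to lens fibre genes. In aged capsule 7 were higher and 5 lower with EGCG, beside 13.8% and 10.3% of all genes, and 22 were not called (11 and 4 by library size alone, 18 and 2 scaled to lens fibre genes). Over all 13711 genes these 2 scalings called 2939 and 3695 higher and 6442 and 5689 lower with age. With EGCG they called 3086 and 4365 higher and 611 and 462 lower. Nupr1, a stress-induced chromatin protein, had 455, 440 and 418 CPM in young control, 1197, 1053 and 1021 in aged control and 784, 757 and 828 in EGCG libraries. It rose 2.49-fold with age and was 1.38-fold lower with EGCG (log2 fold change −0.47, SE 0.0488, edgeR adjusted p = 7.69e-11). Slc7a11, the cystine transporter that feeds glutathione synthesis, was 1.45-fold lower with EGCG, from 87.3, 94.1 and 99.8 CPM to 66.6, 60.7 and 66.0, beside 64.4, 63.4 and 69.0 in young control. For both genes the EGCG libraries lay below all aged control libraries, and the calls with EGCG held under all 19 alternatives. The order of the groups in Nupr1 was the reverse of that of the retinal marker shares. Slc7a11 was also highest in aged control, where these shares were lowest. None of the alternatives adjusted for retinal markers, and the part of retinal RNA in both genes was not tested.

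Other genes of that list were, like Trib3, low in aged control. Aars, alanyl-tRNA synthetase, had 64.2, 63.5 and 65.6 CPM in young control, 35.5, 37.5 and 33.8 in aged control and 58.1, 58.5 and 63.6 in EGCG libraries, 1.68-fold higher with EGCG (log2 fold change 0.75, SE 0.0785, edgeR adjusted p = 7.12e-11). Asns, asparagine synthetase, named after its values were seen, had 140, 120 and 147 counts in young control, 32, 28 and 48 in aged control and 81, 102 and 118 in EGCG libraries, a 2.83-fold difference with EGCG (log2 fold change 1.503, SE 0.253, edgeR adjusted p = 5.945e-06). Vldlr, the very low density lipoprotein receptor, was 3.38-fold lower with age, at 30.5 to 35.6 CPM in aged control, 40.0 to 47.3 in EGCG and 107 to 113 in young control libraries. Sars, seryl-tRNA synthetase, by contrast rose 2.33-fold with age, from 138 to 154 CPM in young control to 328 to 343 in aged control, and had 350 to 376 with EGCG. The order of Aars, Asns and Vldlr, highest in young control and lowest in aged control, was that of the retinal marker shares, whose part in these values was not tested.

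**Figure D5:**
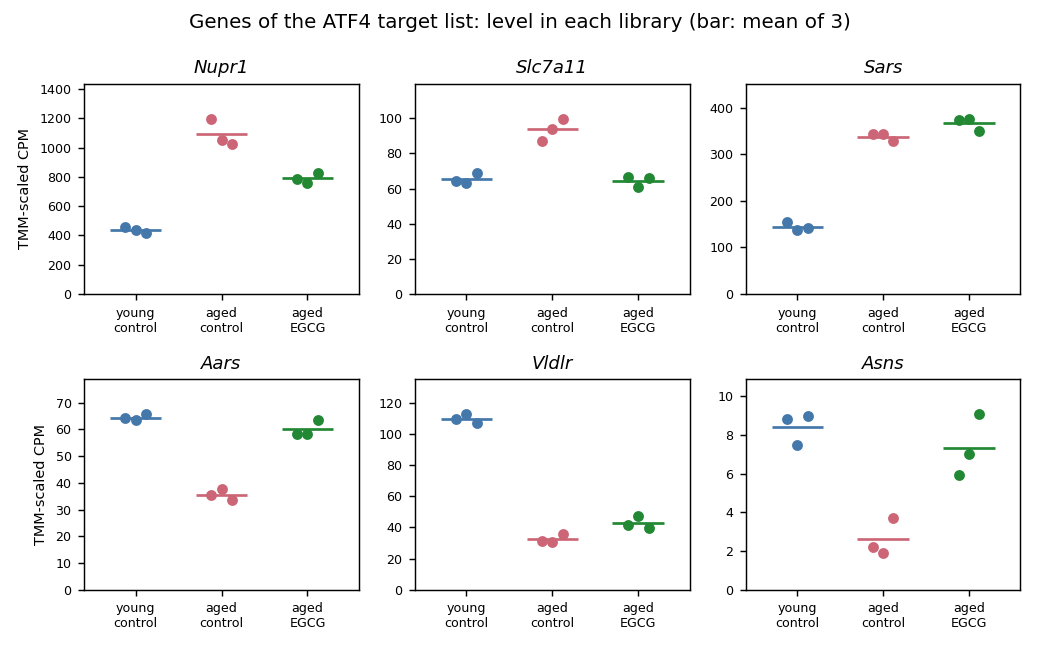
Level of 6 genes of the ATF4 target list (vertical axis, TMM-scaled CPM from 0) in each library of the 3 groups; points are libraries and bars are means of 3. Nupr1 and Slc7a11 were highest in the aged control, Aars, Vldlr and Asns were lowest there, and Sars was high in all 6 aged libraries.

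The genes whose levels were most like those of Hspa5 over the 9 libraries were Insrr, Col9a3 and Top1 (Pearson r of log2 CPM 0.972, 0.970 and 0.969), and among those most like Ddit3 were Pmpcb and Ndufa12 (0.995 and 0.994). The 9 libraries fall into 3 groups, so these values mainly describe equal group levels and carry no test. Exons of Ddit3 share 68 annotated bases with Mars on the opposite strand, Eif2ak3 shares 485 with Gm43292 and Hsp90b1 shares 415 with 1810014B01Rik, also on opposite strands, and 133 and 84 with Gm25745 and Gm15344 on its own strand (GENCODE M21, GRCm38). The sources used here do not say whether counting used strand, so reads of these stretches cannot be told apart.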

How the data were processed

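Per the labels' protocols, the SMARTER mRNA-Seq kit was used for the libraries. GRCm38 (mm10) was the build, per the submitters' processing notes, and the aligner, counter, annotation and strand setting were not given in the sources used here. Whole-number read counts per gene symbol without normalization were deposited by the authors, as were FPKM values, from which 1 length per gene follows. Counts were tested with the quasi-likelihood test of edgeR 4.0.16 (R 4.3.3) after filterByExpr, with TMM factors and 1 fit of group means over 9 libraries (biological coefficient of variation 7.89%), two-sided, with Benjamini-Hochberg adjustment over 13711 genes and calls at 0.05. The standard error came from the log2 fold change and its F statistic, and 95% intervals cover the spread between libraries and counting error only. The fit was checked on simulated counts in which few genes changed, and only in aged control. Many more genes were called with age here, so this check does not bear on the choice of scaling. Alternatives used DESeq2 1.42.0, limma 3.58.1 on log2(FPKM + 1) and log2(FPKM + 0.1), other scalings, no filter, a replicate block, the 2 groups alone and each library left out.

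The members and the gene lists were chosen with earlier results of these data known. Named genes are the 10 members, up to 3 called genes with the smallest p per list for age and for EGCG in aged capsule, and the 3 genes most like Hspa5 and Ddit3; a few genes under this rule are not reported here. Sequences came from RefSeq (GRCm38.p6, 9 of 10 members matched) and GENCODE M21 transcripts.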

Additional observations from a re-analysis of the deposited data

How the results depend on the processing

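Of 570 values (30 member changes under 19 alternatives), 495 kept their direction and their side of the threshold, and 11 of the 30 did so under all 19: with age Atf4, Ddit3, Xbp1 and Dnajb9 higher and Ern1 and Atf6 lower, and for EGCG against young control the same 4 genes higher and Hspa5 lower. The cause of the changes below was not tested. The members called higher with EGCG in aged capsule numbered 1 with DESeq2 and with the 2 groups alone, 4 with library size only and in both limma fits, and 6 scaled to lens fibre genes, against 2. None was called lower (0 against 1) in the last 4 of these settings. Of all genes 1894 were called higher and 1406 lower in the main setting, 1759 and 1320 with DESeq2 and 1584 and 1250 with the 2 groups alone. Library size only gave 3086 and 611, limma 2401 and 507 on log2(FPKM + 1) and 2618 and 540 on log2(FPKM + 0.1). Lens fibre scaling gave 4365 and 462. For EGCG against young control 1 member was called lower with the length trend removed, against 3 (of all genes 4074 against 4301).

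Leaving out 1 library gave 1 to 3 members higher with EGCG and 2 to 4 lower with age. Pathway genes with EGCG were then 7 to 11 higher and 9 to 15 lower. With library size only, limma on log2(FPKM + 1) and limma on log2(FPKM + 0.1), pathway genes higher with age were 51, 51 and 50 and lower with age 37, 38 and 38 (31 on the lens fibre scale). Those higher with EGCG were 26, 19 and 20 and lower 5, 4 and 4 (54 and 2 on that scale), and those lower in EGCG than in young control were 26, 24 and 24. Of all genes the first 3 settings called 2939, 2947 and 2940 higher with age and 6442, 6424 and 6381 lower. They called 5569, 5622 and 5497 lower in EGCG than in young control.

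Values that changed sign follow in the order library size only, log2(FPKM + 1), log2(FPKM + 0.1) and lens fibre scaling. With EGCG in aged capsule these were Atf4 (0.125, 0.127, 0.127 and 0.188, and 0.032 with the length trend removed), Dnajb9 (0.062, 0.062, 0.066 and 0.125), Hsp90b1 (0.073, 0.073, 0.074 and 0.137) and Xbp1 (0.028, 0.025, 0.026 and 0.091), and Ddit3 at 0.059 in the last. Hsp90b1 with age was −0.032 in the first 3. For EGCG against young control Eif2ak3 was −0.173, −0.139 and −0.164 in the first 3, −0.029 in edgeR with DESeq2 size factors and −0.027 with DESeq2, and Trib3 was −0.061 with the length trend removed. With 1 library left out, Atf4 ranged from −0.063 to 0.081 and Dnajb9 from −0.155 to 0.004 with EGCG, Eif2ak3 from −0.058 to 0.143 for EGCG against young control, and Hspa5 reached 0.004 with age.

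Deviations of same-numbered libraries from their group means correlated between −0.006 and 0.033 over 9 pairs, and those of other pairs between −0.02 and 0.026 over 18. These values show no pairing by number, but they cannot exclude that libraries share a batch. With the replicate block 2 members were higher and 1 lower with EGCG, 5 and 4 with age and 5 and 3 for EGCG against young control, as without it. Counts of 16 to 44 for Trib3 in a library limit its precision.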
